A study of Homo sapiens with 2 samples.

Results

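The miR-17-92 cluster is a group of 6 microRNA (miRNA) hairpins, mir-17, mir-18a, mir-19a, mir-20a, mir-19b-1 and mir-92a-1, carried by 1 noncoding host gene, MIR17HG. Every entry of the deposited table that belongs to 1 of these hairpins was taken, with both arms of each, which gave 12 of the 1546 entries. An arm is the mature miRNA cut from the 5′ (5p) or 3′ (3p) side of a hairpin. Levels are in RPM, reads per 1000000 read assignments of a library, and values are the mean ± SD of 2 libraries (n = 2) unless each library is given.

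Small RNA was sequenced from A375, an established human melanoma cell line, after 48 h in DMSO, the solvent used as vehicle. The samples form 1 group of 2 replicates, with no untreated or otherwise treated group beside it, so levels, arms and copies were compared within each library. For both, 1000000 cells were seeded on a 10 cm dish, with 24 h before treatment. The replicates are described as independent, with nothing on whether cultures or days differed, so part of their spread may be technical. Library totals were 10816826 (replicate 1) and 15428446 (replicate 2) read assignments, and 1 read equalled 0.0924 and 0.0648 RPM.

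A miRNA cluster is transcribed as 1 long RNA, from which the enzymes Drosha and then Dicer cut the hairpins and their arms. One arm is usually kept in an Argonaute protein as the guide strand, and the other, the passenger strand, is mostly lost. The guide recognises target messenger RNAs mainly through its seed, bases 2 to 8 from its 5′ end. The miR-17-92 cluster is known as an oncogenic cluster, its host gene is activated by MYC, and among its described targets are E2F1, the cell cycle inhibitor CDKN1A and the death factor BCL2L11.

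The 6 arms with the higher mean of their hairpin, called main arms here, fall into 4 seed groups. Their sequences, from RefSeq (GRCh38.p14), are shown by group because the group sets which targets an arm can recognise, with the seed in capitals. The first pair shares the miR-17 seed, miR-18a-5p differs from it in the seed, the next pair shares the miR-19 seed, and the last carries the miR-92 seed.
miR-17-5p: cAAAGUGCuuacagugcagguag
miR-20a-5p: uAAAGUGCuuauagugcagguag
miR-18a-5p: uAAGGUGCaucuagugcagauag
miR-19a-3p: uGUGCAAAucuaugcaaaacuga
miR-19b-3p: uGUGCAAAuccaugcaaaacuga
miR-92a-3p: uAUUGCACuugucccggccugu

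MiR-17-5p and miR-20a-5p were identical at all but 2 of 23 positions (C1U and C12U, with the base of miR-17-5p first and positions counted from the 5′ end). MiR-19a-3p and miR-19b-3p differed at 1 of 23 (U11C, with the base of miR-19a-3p first). MiR-17-5p and miR-18a-5p differed at 6 of 23.

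The arms from the other side of the same hairpins, shown because their levels set the arm ratios below, have these sequences, again with bases 2 to 8 in capitals.
miR-17-3p: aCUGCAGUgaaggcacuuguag
miR-20a-3p: aCUGCAUUaugagcacuuaaag
miR-18a-3p: aCUGCCCUaagugcuccuucugg
miR-19a-5p: aGUUUUGCauaguugcacuaca
miR-19b-1-5p: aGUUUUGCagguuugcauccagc
miR-92a-1-5p: aGGUUGGGaucgguugcaaugcu

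Here miR-17-3p and miR-20a-3p differed at 7 of 22 positions, against 2 for their main arms. MiR-19a-5p and miR-19b-1-5p shared bases 2 to 8 and differed at 8 positions in all.

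In GRCh38 the hairpins lie on the plus strand of chromosome 13 in the order mir-17 (91350605 to 91350688), mir-18a (91350751 to 91350821), mir-19a (91350891 to 91350972), mir-20a (91351065 to 91351135), mir-19b-1 (91351192 to 91351278) and mir-92a-1 (91351314 to 91351391). They fill 787 bases, with 35 to 92 bases between neighbours. MIR17HG spans 91347820 to 91354579 in GENCODE 29. In 1 of its 3 annotated transcripts all 6 hairpins are intronic, and in the other 2 they are exonic.

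The cluster's entries were very uneven, and miR-92a-3p made up most of their sum. The 12 arms summed to 58796 RPM in replicate 1 and 57674 RPM in replicate 2 (58235 ± 794 RPM). That was 5.88% of all read assignments in replicate 1 (exact 95% binomial interval 5.87% to 5.89%) and 5.77% in replicate 2 (5.76% to 5.78%), intervals that cover counting error only. These sums give the cluster all reads listed for mir-92a-1 and mir-19b-1, most of which also fit copies on the X chromosome, and without miR-92a-3p and miR-19b-3p the other 10 arms summed to 4448 and 4774 RPM (4611 ± 231). Taking 10 RPM in each library as the limit for expression, 11 of the 12 arms were expressed, beside 22.4% of all 1497 mature names in the table. At 100 RPM or more stood 7 of them (10.8% of all names) and at 1000 RPM or more 3 (4.07%).

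In the table each name carries the prefix hsa- for human, left out elsewhere here. The arm hsa-miR-92a-3p, which holds the miR-92 seed and is encoded at the 3′ end of the cluster, had 53477 and 52103 RPM (52790 ± 972), or 578452 and 803861 reads. It made up 90.6% ± 0.434 of the cluster's RPM if every read of the mir-92a-1 entry is given to the cluster, although 45183 and 43721 RPM of the same name were also listed for mir-92a-2 on the X chromosome. The name ranked 4 among the 1497. Its place there was not resolved, since miR-191-5p, next above it, had 45001 and 61895 RPM and miR-27b-3p, next below it, 52181 and 48824 RPM. All 11 other arms together reached 5319 and 5572 RPM (5446 ± 178).

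The miR-17 seed pair came next. The arm hsa-miR-20a-5p had 1767 and 1879 RPM (1823 ± 79.1, rank 52). The arm hsa-miR-17-5p had 1567 and 1844 RPM (1705 ± 195, rank 55). The ranges of these 2 arms overlapped, although miR-20a-5p was the higher in each library, by 1.13 times in replicate 1 (exact 95% interval 1.10 to 1.15) and 1.02 times in replicate 2 (1.003 to 1.036). Without miR-92a-3p, miR-20a-5p held 33.5% ± 0.356 and miR-17-5p 31.3% ± 2.56 of what remained.

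The miR-19 seed pair was lower. The arm hsa-miR-19b-3p had 872 and 798 RPM in the entry of mir-19b-1 (835 ± 52.4). MiR-19a-3p had 376 and 350.2 RPM (363.3 ± 18.5, rank 104). The ratio of miR-19b-3p to miR-19a-3p was nearly the same in both libraries, 2.32 (2.23 to 2.40) and 2.28 (2.21 to 2.35). This ratio gives the cluster all reads of the mir-19b-1 entry. The same name was also listed at 902 and 831 RPM for mir-19b-2 on the X chromosome. The ratio between the 2 hairpins of the cluster was therefore not resolved.

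MiR-18a-5p, the only main arm with the miR-18 seed, was the lowest of the 6 at 170.4 and 201 RPM (186 ± 21.5, rank 131). The hairpin of miR-18a is known to need the RNA-binding protein hnRNP A1 for its processing. MiR-17-5p, from the hairpin just upstream, stood 9.20 times above miR-18a-5p in replicate 1 (8.77 to 9.66) and 9.18 times in replicate 2 (8.85 to 9.53). Both were higher in replicate 2, and their ratio moved by less than its counting interval.

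By seed, the main arms summed to 52790 ± 972 RPM for miR-92, 3529 ± 275 RPM for miR-17, 1198 ± 70.9 RPM for miR-19 and 186 ± 21.5 RPM for miR-18. The highest main arm stood 314 times above the lowest in replicate 1 and 259 times in replicate 2. Without miR-92a-3p the span was 10.4 and 9.36. Among the 12 genomic clusters with 3 or more hairpins at 10 RPM or more on 1 strand, with neighbours up to 10 kb apart, only the X-linked relative of miR-17-92 had a larger span of its hairpins' higher arms (3707 between mir-92a-2 and mir-363), and that cluster shares the reads of miR-92a-3p. The next, miR-183-96-182, spanned 138. The span of miR-17-92 likewise gives it all reads of the mir-92a-1 entry, so its place among these clusters was not resolved.

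**Figure D1:**
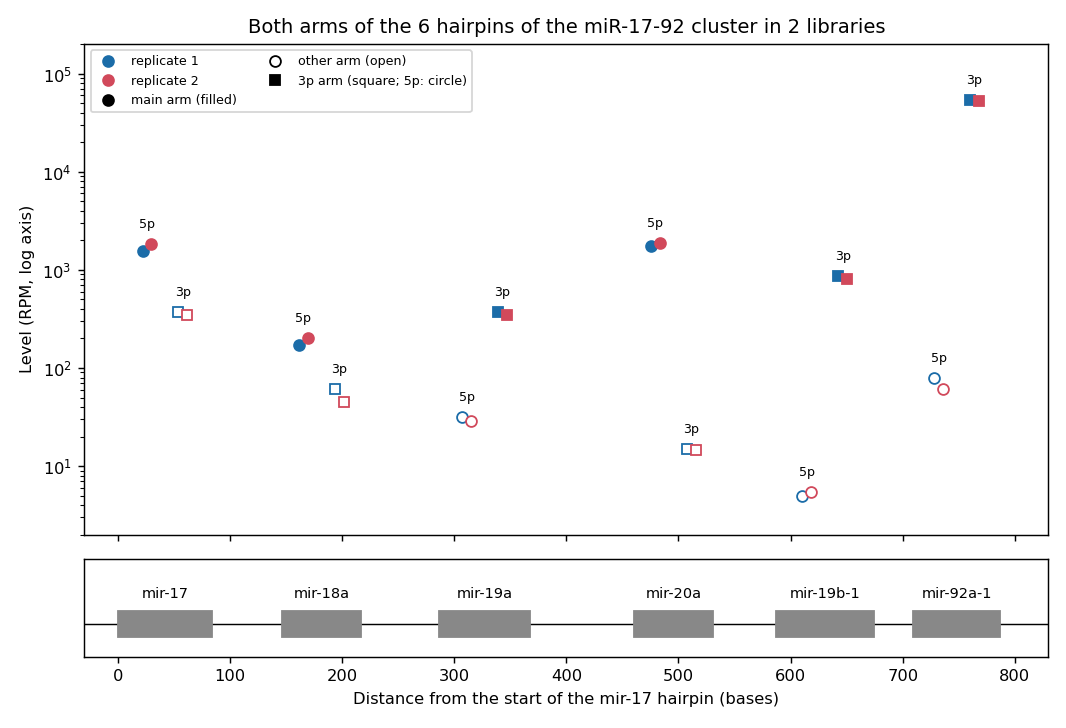
Level in RPM (log axis) of each arm in the 2 libraries, placed at its hairpin, with the distance in bases from the start of mir-17 on the horizontal axis and the hairpins as grey boxes below. Circles are 5p arms, squares 3p arms, filled symbols main arms and open symbols the other arms, with blue for replicate 1 and red for replicate 2. MiR-92a-3p at the right end lies at 53477 and 52103 RPM, and miR-17-3p is as high as the main arm miR-19a-3p.

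The 6 other arms summed to 566 and 500.1 RPM (533 ± 46.8). MiR-17-3p led them with 374 and 345 RPM (360 ± 20.2). It was as abundant as the guide strand miR-19a-3p, with miR-19a-3p over miR-17-3p at 1.01 in replicate 1 (0.963 to 1.05) and 1.01 in replicate 2 (0.976 to 1.05). It also exceeded the main arm of its neighbour, miR-18a-5p, by 2.20 times (2.08 to 2.32) and 1.72 times (1.646 to 1.799). The level of miR-17-3p was thus within that of main arms of the same transcript.

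MiR-92a-1-5p had 78.8 and 60.9 RPM (69.8 ± 12.6), and miR-18a-3p had 61.8 and 44.8 RPM (53.3 ± 11.998). Their ranges overlapped. MiR-19a-5p had 31.8 and 28.8 RPM (30.3 ± 2.14). MiR-20a-3p, the counterpart of miR-17-3p in the other hairpin with the miR-17 seed, had 14.9 and 14.6 RPM (14.8 ± 0.167). MiR-19b-1-5p, the only arm below 10 RPM, had 4.99 and 5.51 RPM (5.25 ± 0.366), or 54 and 85 reads. Of the 11 pairs of neighbours in the order of the 12 levels, 3 had overlapping ranges, miR-20a-5p with miR-17-5p, miR-19a-3p with miR-17-3p and miR-92a-1-5p with miR-18a-3p, and every pair kept its order in both libraries.

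Each hairpin favoured 1 arm by more than 2-fold in both libraries, 3 of them the 5p arm (mir-17, mir-18a, mir-20a) and 3 the 3p arm (mir-19a, mir-19b-1, mir-92a-1). The background was the 137 hairpins that had both arms in the table and whose arms summed to a mean of at least 100 RPM. Of these, 92.7% favoured either arm by that rule, 58.4% the 5p arm and 34.3% the 3p arm. Favouring 1 arm therefore did not set the 6 hairpins apart. The size of the preference ranged widely, with a median of 36.7-fold over the 6 hairpins and 47.0-fold over the 137.

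The hairpins mir-17 and mir-20a are shown in full because their main arms are near twins while their other arms are not, with both annotated arms in capitals and the 5p arm first.
mir-17: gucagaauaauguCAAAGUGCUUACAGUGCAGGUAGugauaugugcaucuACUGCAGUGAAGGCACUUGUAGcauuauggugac
mir-20a: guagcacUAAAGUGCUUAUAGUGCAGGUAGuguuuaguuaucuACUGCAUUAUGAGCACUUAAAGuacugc

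MiR-17-5p exceeded miR-17-3p by 4.19-fold in replicate 1 and 5.34-fold in replicate 2. MiR-20a-5p exceeded miR-20a-3p by 119-fold and 128-fold. The main arms of these hairpins thus stood within 1.13 times of each other in each library, while miR-17-3p stood 25.1 times (21.5 to 29.6) and 23.6 times (20.6 to 27.1) above miR-20a-3p. On the log2 scale with 1 RPM added to each arm, the 5p over 3p ratio was 2.24 ± 0.25 for mir-17 and 6.85 ± 0.08 for mir-20a. Of the 137 hairpins, 26 had a smaller ratio in size than mir-17 and 98 a smaller one than mir-20a.

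The smallest preference in the cluster was that of mir-18a, with miR-18a-5p 2.76 times and 4.48 times above miR-18a-3p (log2 ratio 1.79 ± 0.49), and 17 of the 137 hairpins had a smaller one. The other arm held 22.4% ± 5.92 of the reads of mir-18a, 17.5% ± 2.47 of those of mir-17 and 7.69% ± 0.140 of those of mir-19a. It held 0.804% ± 0.0436 for mir-20a, 0.628% ± 0.0824 for mir-19b-1 and 0.132% ± 0.0214 for mir-92a-1. The median share over the 137 hairpins was 1.96%, so 3 hairpins of the cluster lay above it and 3 below. For mir-19b-1 and mir-92a-1 the main arm also takes reads that fit a hairpin on the X chromosome, so their shares are lower limits.

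MiR-19a-3p stood 11.8 and 12.2 times above miR-19a-5p, the steadiest ratio of the 6 (log2 ratio -3.54 ± 0.03). At the 3′ end of the cluster the ratio was 175-fold and 145-fold for mir-19b-1 and 679-fold and 855-fold for mir-92a-1, if all shared reads are given to these hairpins. Because of those reads, the places of mir-19b-1 and mir-92a-1 relative to mir-20a were not resolved.

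**Figure D2:**
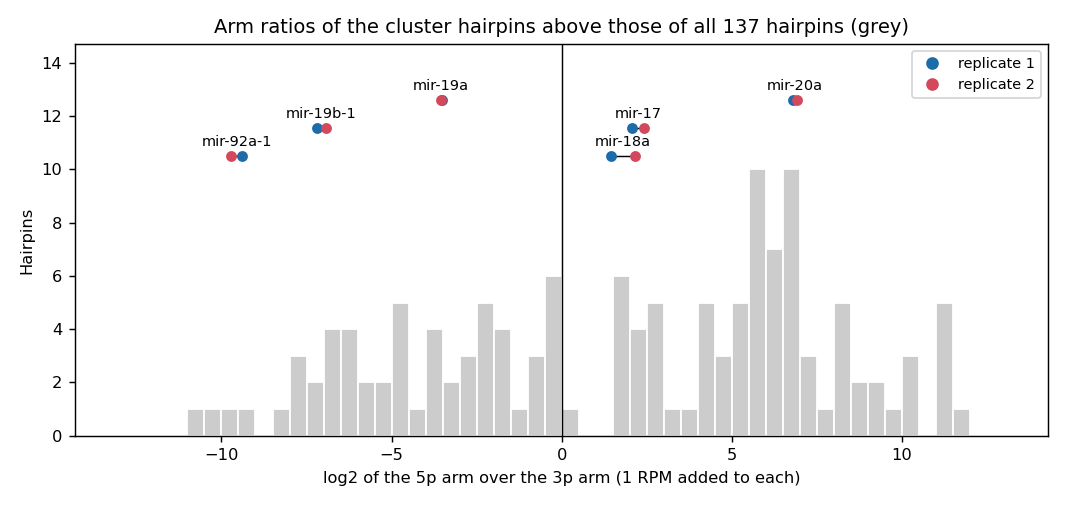
Number of hairpins (vertical axis) by the log2 of the 5p arm over the 3p arm, with 1 RPM added to each, for all 137 hairpins in grey. The points above mark the 6 cluster hairpins, blue for replicate 1 and red for replicate 2, at heights that carry no value. The hairpins mir-17 and mir-18a lie nearest to 0, at 2.24 and 1.79. The hairpin mir-92a-1 is the farthest at -9.55, if all shared reads are given to it.

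Among relatives with the miR-17 seed outside the cluster, both patterns occurred. The hairpin mir-93, whose main arm is miR-93-5p, had a log2 5p over 3p ratio of 5.61 ± 0.11. The hairpin mir-106b favoured neither arm by 2-fold in both libraries (-0.51 ± 0.33), and there the 3p arm was the higher, at 547 and 414 RPM against 326 and 343 RPM for miR-106b-5p. With the miR-92 seed, mir-92b (-9.21 ± 0.38) was as one-sided as mir-92a-1 (-9.55 ± 0.23), if all shared reads are given to mir-92a-1. The hairpin mir-25 was less one-sided than mir-92b (-5.84 ± 0.65), and mir-32 favoured neither arm (0.39 ± 0.19). Hairpins that make the same seed thus ranged in these cells from nearly balanced to as one-sided as mir-92b.

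MiR-92a-3p and miR-19b-3p are each encoded also on the X chromosome, by mir-92a-2 (134169538 to 134169612) and mir-19b-2 (134169671 to 134169766), both on the minus strand. Most reads fit both copies of a name and appear to be listed for each. The difference between copies is therefore a net value, in which reads specific to either copy can cancel. The mature sequence and the 6 bases after it are shown for each copy, with the first base past the annotated 3′ end in capitals, because that is where a read could tell the copies apart.
mir-92a-1: uauugcacuugucccggccuguUgaguu
mir-92a-2: uauugcacuugucccggccuguGgaaga
mir-19b-1: ugugcaaauccaugcaaaacugaCugugg
mir-19b-2: ugugcaaauccaugcaaaacugaUuguga

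MiR-92a-3p was listed at 53477 and 52103 RPM for mir-92a-1 and at 45183 and 43721 RPM for mir-92a-2. The entry of the cluster was thus higher by 89711 and 129308 reads, or 18.4% and 19.2% (18.8% ± 0.576). MiR-19b-3p went the other way, with 902 and 831 RPM for mir-19b-2 against 872 and 798 RPM for mir-19b-1, a gap of 323 and 507 reads, or 3.42% and 4.12%. The gap for miR-92a-3p ranked 6 among 34 names with several copies and 10 RPM or more, where the median gap was 1.53%. In both names the copy followed by U was the one with more reads.

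The next base was then looked at in the other names with several copies, a choice made after these values had been seen. Of the 34 names, 23 had all copies in the RefSeq table, and in 7 of these 1 copy had U as the next base and another had not. The copy followed by U had more reads in both libraries in 7 of 7, miR-92a-3p and miR-19b-3p included, by 0.935% to 18.8% in the mean. The others were miR-128-3p (4.91%) and, at 0.935% to 1.86%, miR-138-5p, miR-105-3p, let-7f-5p and miR-29b-3p. The median gap of the 34 names was 1.53%. Gaps larger than that of miR-92a-3p occurred with no U after either copy. These were miR-320c (40.9%, A after both), miR-196a-5p (36.2%, A over C) and miR-194-5p (27.1%, A over C). Whether the next base accounts for the size of a gap was not tested. The values do not show whether a U past the annotated end was genomic or added to the RNA.

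**Figure D3:**
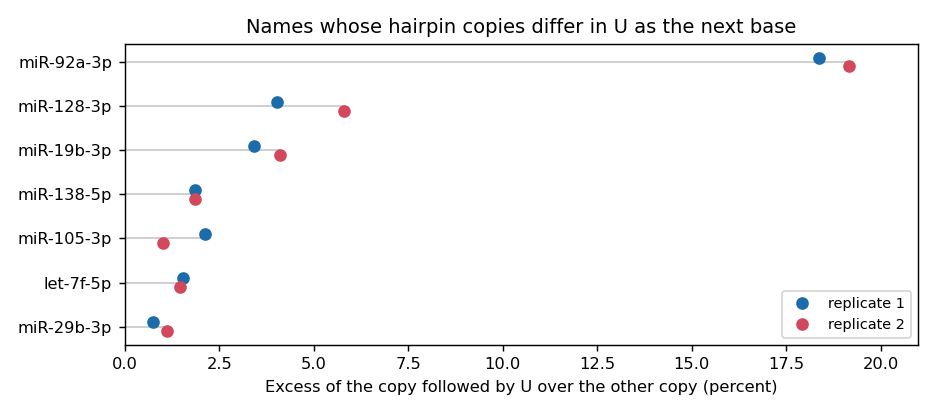
Excess, in percent, of the entry whose hairpin has U as the next base over the lower entry of the same name (horizontal axis), for the 7 names where copies differ in that base, with blue for replicate 1 and red for replicate 2. MiR-92a-3p lies at 18.4% and 19.2%, and miR-19b-3p, where the X-linked copy is the higher, at 3.42% and 4.12%.

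The arm on the other side of each hairpin is made by 1 copy only. MiR-92a-1-5p and miR-19b-1-5p of the chromosome 13 cluster had the 69.8 ± 12.6 and 5.25 ± 0.366 RPM given above, while miR-92a-2-5p and miR-19b-2-5p had no entry and so no value here. The other members of the X-linked cluster were low. MiR-363-3p had 10.6 and 13.4 RPM, miR-106a-5p 4.90 and 5.64 RPM, miR-20b-5p 2.03 and 2.92 RPM and miR-18b-5p 7 and 6 reads.

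Of these, 3 resemble a cluster member closely. MiR-106a-5p differs from miR-17-5p at 1 of 23 positions (C1A), miR-18b-5p from miR-18a-5p at 1 (A20U) and miR-20b-5p from miR-20a-5p at 2 (U1C and U10C), with the base of the cluster member first.
miR-106a-5p: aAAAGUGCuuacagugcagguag
miR-18b-5p: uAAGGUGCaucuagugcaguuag
miR-20b-5p: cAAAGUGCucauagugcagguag

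MiR-17-5p stood 320 times above miR-106a-5p in replicate 1 (exact 95% interval 244 to 427) and 327 times in replicate 2 (265 to 408). MiR-20a-5p stood 869 times (574 to 1387) and 644 times (481 to 884) above miR-20b-5p. MiR-18a-5p stood 263 times (128 to 656) and 516 times (237 to 1408) above miR-18b-5p, intervals that overlap. MiR-363-3p differs from miR-92a-3p at 12 of 22 positions, and miR-92a-3p stood 5030 times (4190 to 6093) and 3902 times (3404 to 4495) above it. A read without its first base fits both miR-17-5p and miR-106a-5p, and how such reads were assigned is not given in the sources used here.

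For the whole seed groups, which hold the names a given target site could meet, the cluster's share differed from seed to seed. Both listed names of the miR-19 seed, miR-19a-3p and miR-19b-3p, are cluster names, so a share of 100% by name was fixed in advance. That share is an upper limit, since the X-linked mir-19b-2 had 323 and 507 more miR-19b-3p reads than mir-19b-1. The cluster supplied 99.7% ± 0.131 of the miR-18 seed. Of the miR-92 seed it supplied 71.5% and 68.5% (70.0% ± 2.06), if all reads of the mir-92a-1 entry are given to it. The rest was mainly miR-92b-3p at 17359 and 18998 RPM and miR-25-3p at 3964 and 4871 RPM. MiR-92a-3p exceeded miR-92b-3p by 3.08 times (3.06 to 3.10) and 2.74 times (2.73 to 2.75).

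The miR-17 seed was the most divided. MiR-17-5p and miR-20a-5p together made up 57.8% and 61.5% of its 5769 and 6052 RPM (59.7% ± 2.62). MiR-93-5p, from the miR-106b-25 cluster in an intron of MCM7, had 2101 and 1978 RPM and was above both cluster members in each library, with miR-20a-5p over miR-93-5p at 0.841 (0.825 to 0.857) and 0.950 (0.935 to 0.965). MiR-106b-5p had 326 and 343 RPM, below miR-17-5p by 4.80 times (4.63 to 4.98) and 5.38 times (5.22 to 5.54). The primate miRNA miR-519d-3p had 0 reads and 1 read, and miR-526b-3p had no entry.

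**Figure D4:**
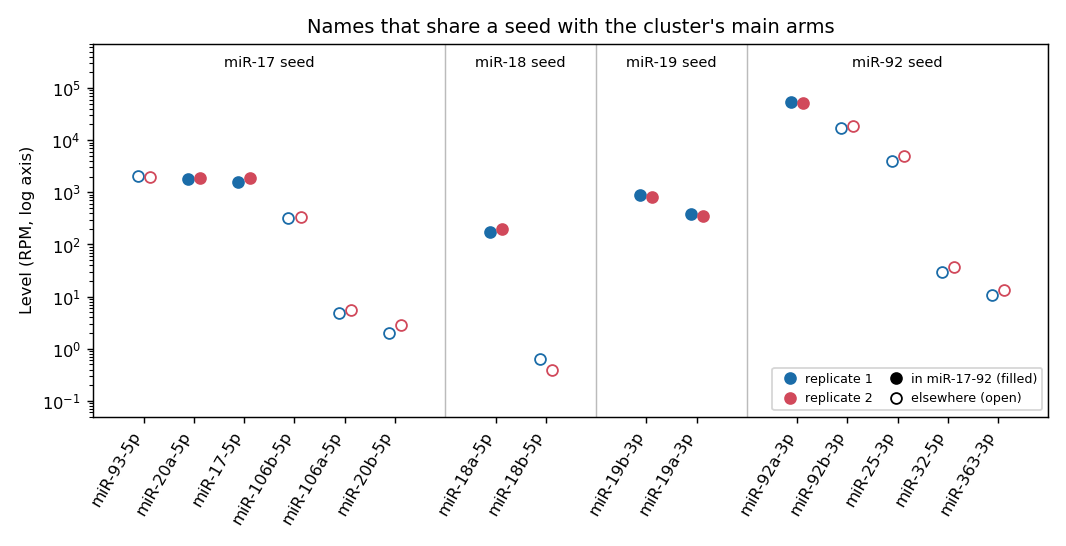
Level in RPM (log axis) of each listed name that shares a seed with a main arm of the cluster, grouped by seed and sorted by mean, with blue for replicate 1 and red for replicate 2. Filled symbols are names of miR-17-92 and open symbols are encoded elsewhere. MiR-19b-3p is drawn at its higher entry, that of the X-linked mir-19b-2 (902 and 831 RPM). MiR-519d-3p, at 0 in replicate 1, is not drawn. MiR-93-5p at 2101 and 1978 RPM tops the miR-17 seed, while miR-18b-5p and the X-linked miR-106a-5p and miR-20b-5p lie below 10 RPM.

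The 12 arms differed between the 2 libraries by at most 1.38-fold. Fisher's exact test compared the reads of each name between the libraries, which says how these libraries differ and nothing of a condition, with Benjamini-Hochberg adjustment over 869 names. By an adjusted p under 0.05 and a difference over 2-fold, 0 of the 12 arms were called, beside 4.60% of all names tested. Over 1.5-fold the count was also 0, beside 9.32%. Without the fold limit 9 of the 12 passed, beside 34.5% of all names, and the same number had an unadjusted p under 0.05. With a fold limit these counts do not set the arms apart from other names. Without it a larger share of the arms passed, but the test calls small differences at high read counts. Names of like read count were not compared. The median size of the log2 difference was 0.13 over the 11 arms with a mean of 10 RPM or more and 0.25 over the 346 names at that level.

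The largest difference was that of miR-18a-3p, whose 61.8 RPM in replicate 1 was 1.38 times its 44.8 RPM in replicate 2 (log2 replicate 2 over replicate 1 -0.45, adjusted p = 2.7e-08, Fisher's exact test). MiR-92a-1-5p followed at -0.37 (adjusted p = 4.0e-07, same exact test). Both are passenger strands. MiR-17-5p and miR-18a-5p differed the other way, by 0.23 (adjusted p = 1.5e-62, exact) and 0.24 (adjusted p = 1.3e-07, exact).

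MiR-92a-3p moved by -0.04 (0.07 when the libraries were scaled by their median ratio), and with 578452 and 803861 reads even that passed the exact test (adjusted p = 4.3e-53). The 3 arms that did not pass were miR-19a-5p (-0.14, adjusted p = 0.322), miR-20a-3p (-0.02, adjusted p = 0.960) and miR-19b-1-5p (0.12, adjusted p = 0.781), all by the same exact test and with 54 to 444 reads per library. In all, 8 arms were higher in replicate 1 and 4 in replicate 2, and the median over all 346 names was itself -0.10. With the libraries scaled by their median ratio, miR-92a-3p and miR-20a-3p (0.08) changed direction, and 6 rather than 9 arms had an adjusted p under 0.05 by the exact test.

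The arms of a hairpin did not always differ in the same direction. Both arms were higher in replicate 1 in mir-19a (3p -0.10, 5p -0.14) and mir-92a-1 (3p -0.04, 5p -0.37). In mir-17 and in mir-18a the 5p arm was higher in replicate 2 and the 3p arm higher in replicate 1. With the libraries scaled by their median ratio, miR-17-3p differed by only -0.01 and miR-92a-3p by 0.07. The arms of mir-17 and of mir-18a lay further apart in replicate 2. This also held for 5 of the 6 cluster hairpins and for 75 of the 137 hairpins of the background.

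**Figure D5:**
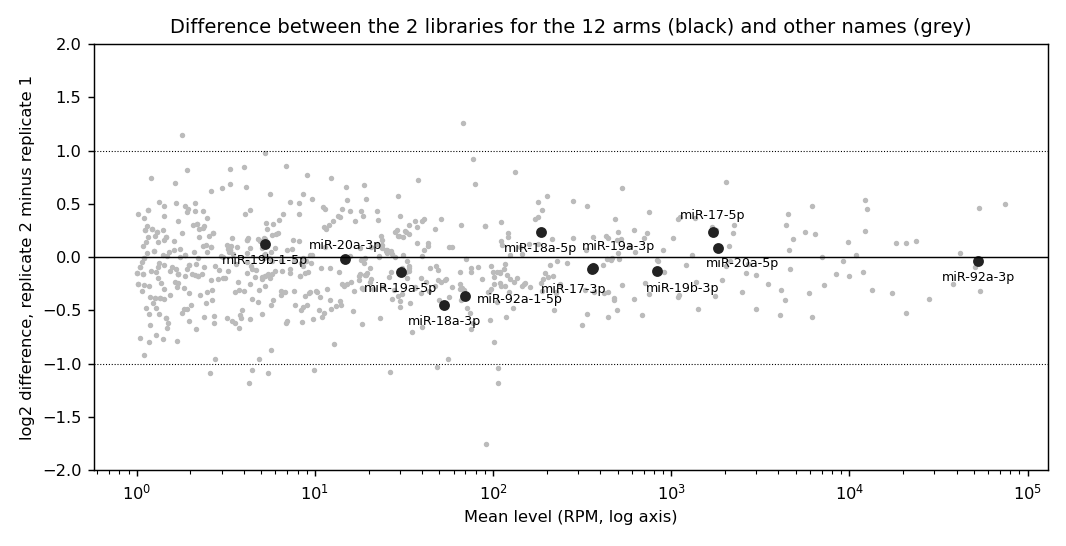
Log2 difference between the libraries (replicate 2 minus replicate 1, 1 RPM added) against the mean level in RPM (log axis), with the 12 arms in black and all other names with a mean of 1 RPM or more in grey; dotted lines mark 2-fold. All 12 arms lie between the dotted lines, and miR-18a-3p (-0.45) and miR-92a-1-5p (-0.37) are the lowest of them.

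The 12 sequences share features that were not used to choose them. Of the 6 main arms, 5 begin with U and miR-17-5p begins with C, while all 6 other arms begin with A. Among the other background hairpins, 63.6% of 121 main arms began with U and 23.7% of 118 other arms with A, counting those with a RefSeq sequence. MiR-17-5p and miR-20a-5p, which differ at their first base, had overlapping levels but arm ratios of 4.19 and 5.34 against 119 and 128. They also differ at position 12, and their other arms at 7 of 22 positions. Whether the first base bears on the arm ratios was not tested.

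All 6 hairpins had a GC content below the median of 50.7%, from 38.0% to 48.7%. Their predicted folds were weaker than the median of -39.3 kcal/mol over the 123 background hairpins with a RefSeq sequence, but total energy depends on length. Per base, mir-19a (-0.47) was stronger than the median of -0.46, mir-92a-1 (-0.46) was at it, and mir-19b-1 (-0.44), mir-20a (-0.44) and mir-17 (-0.40) were weaker. The fold was weakest for mir-18a. Its minimum free energy of -21.1 kcal/mol was the weakest of all 123, and so was its energy per base (-0.30). The other 5 ranged from -31 kcal/mol (mir-20a) to -38.7 kcal/mol (mir-19a).

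Of the first 4 bases of each arm, fewer were paired in the main arm than in the other arm in 4 of the 6 hairpins (mir-17, mir-18a, mir-19a and mir-20a), and as many in mir-19b-1 and mir-92a-1. Over the 104 other hairpins where this could be read, 49.0% had fewer paired bases at the start of the main arm, 30.8% as many and 20.2% more. In mir-17, 2 bases were paired at the start of miR-17-5p and 4 at that of miR-17-3p, and in mir-20a 3 and 4. These are predictions from sequence and no structure was measured.

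The labelled cell type was checked against marker miRNAs. Of 10 melanocyte and melanoma miRNAs 6 were expressed, summing to 89389 and 77147 RPM, of which miR-21-5p, common to many cell types, held 59733 and 47975 RPM. MiR-204-5p had 2766 and 2498 RPM. The 4 not expressed were miR-137, miR-155-5p, miR-214-3p and miR-211-5p, the miRNA of the melanocyte gene TRPM1, with 3 and 2 reads, so the sum itself says little of the cell type. The 6 blood markers chosen, of interest because blood cells also express this cluster, were near 0. Of them 4 were listed and 0 expressed, with a sum of 4.71 and 4.41 RPM. That list left out miR-486-5p, which had 170.9 and 200.1 RPM, so it does not cover all blood miRNAs. Epithelial markers summed to 54.3 and 70.3 RPM with 2 of 6 expressed. Of the neuronal list 2 of 4 were expressed, summing to 1831 and 2000.2 RPM. The liver marker and the muscle list stayed below 1 RPM.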

How the data were processed

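Small RNA libraries of 2 replicates of A375 cells in DMSO were analysed. The deposited table gives RPM for each pair of hairpin and mature miRNA, with decimal commas. The submitters' processing notes name CASAVA 1.8 and cutadapt 1.2.1. The sources used here do not name the aligner, the miRNA annotation or the build, nor say how a read that fits several hairpins was treated. Each of the authors' deposited RPM columns sums to 1000000 over all entries. Divided by the smallest value of its column, 100% of the nonzero values came out whole (within 0.01), which gave the reads. The near-equal values of most copies look as if such a read was counted once for each hairpin it fits, in which case RPM is lower than per sequenced read. Adapter ligation and trimming favour some sequences, so ratios between miRNAs are not molar ratios. No entry was 0 in both libraries, and a name without an entry got no value.

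Members were all entries of the 6 hairpins. The members, lists and rules were chosen with earlier results of these data known. All members, names sharing a seed, paralogous hairpins and neighbours in level were to be named. Level, span, arm and seed comparisons carry no test, since there is 1 group. Ratios of reads carry exact conditional binomial intervals. The library test was Fisher's exact test, two-sided, on recovered reads of names with 10 or more in sum, with Benjamini-Hochberg adjustment over 869 names and 0.5 reads added for the fold. Cluster entries were used for members and the highest copy for other names and for ranks. Tested on simulated libraries with counting error only, it found 200 of 200 names given a 3-fold change and called 4 of the 667 left alone. Other spread between real libraries was not simulated. Log2 differences used 1 RPM as pseudocount and understate those of low names.

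RefSeq sequences (GRCh38.p14) matched 1317 of 1497 names and 866 of 1095 hairpins. GENCODE 29 matched 1094 hairpins. Folds used RNAfold (ViennaRNA 2.7.2). Statistics used Python 3.11.15, pandas 2.3.3 and scipy 1.17.1, and plots matplotlib 3.10.9.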

Additional observations from a re-analysis of the deposited data

How the results depend on the processing

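Of 68 values recomputed under alternatives, 50 stayed within the spread between replicates or the limits set, and 18 moved. The number of expressed arms was 7 at a minimum of 100 RPM and 11 with either replicate left out. The summed level of 58235 RPM became 74745 with each name counted once in the total, 49898 with the lowest copy, 103554 with copies summed, 62946 without the most abundant miRNA in the total and 4611 without miR-92a-3p and miR-19b-3p, whose reads a second hairpin shares. It ranged from 57674 to 58796 with a replicate left out. The span of the main arms, 284, became 524 with copies summed, 239.5 with the lowest copy and 9.82 without those 2 names, and ranged from 259 to 314 with a replicate left out. The count of hairpins with a favoured arm stayed at 6 with either replicate left out and was 4 at a 10-fold limit. The cluster's share of the miR-17 seed ranged from 57.8% to 61.5%. Arms called between the libraries numbered 0 at 1.5-fold and 9 with no fold limit. Scaling by the median ratio of the libraries (0.931, log2 -0.10) moved the log2 differences of 8 of the 12 arms (other pseudocounts moved 0). A difference counted as moved only if it changed by at least the SD of its 2 library values. A pseudocount of 10 RPM took miR-19b-1-5p from 0.12 to 0.05, which did not count. The scaling turned the differences of miR-20a-3p and miR-92a-3p to 0.08 and 0.07. It left 6 arms with an adjusted p under 0.05 by Fisher's exact test. No paired analysis was possible because there is 1 group. With 2 libraries, only counting error is well measured.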
